A study of Mus musculus with 47 samples.

Results

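Annexin A2 binds filamentous actin, and 45 genes of the actin cytoskeleton and of focal adhesions were followed in mouse JB6 cells with less of it. A gene was taken from probe sets (groups of short probes for a transcript on an Affymetrix array) that carry its symbol and no other. Where several qualified, the brightest on average stood for the gene. Of the 45 listed genes 44 were measured in this way, and 43 lay above the low-signal limit (a log2 mean of 4.35) and were tested, out of 12393 genes measured and 8675 tested in all. Myh10, a heavy chain of non-muscle myosin II, was not analysed here. Cnn1, the smooth muscle calponin, stayed between group means of 3.54 and 3.85 in all 16 groups, below the limit, and was not tested.

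The samples are 47 arrays of RNA from JB6, a mouse epidermal cell line used in studies of tumour promotion. A short hairpin RNA (shRNA) against AnxA2, or the vector alone, had been brought in by retrovirus and cells carrying it selected with puromycin. Each line was sham-treated (called untreated here) or given 10 or 100 cGy of X-rays, and RNA was taken after 2, 6 or 24 h, with no untreated cells at 6 h among the samples used. This makes 16 groups of 3 arrays, 8 in each line, except vector cells 24 h after 10 cGy, with 2. The labels do not say whether a line is a clone or a pool, or whether replicates are separate cultures, so p-values measure the spread between these samples, and an effect of the shRNA cannot be told apart from any other difference between the lines. In RNA of whole cultures, a change in the number of cells that express a gene and a change per cell cannot be told apart either.

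Actin monomers polymerise into filaments that Arp2/3 nucleates, profilin and Ena/VASP proteins extend and cofilin severs. Filaments are bundled by alpha-actinin, stabilised by tropomyosin and pulled by non-muscle myosin II. At focal adhesions, integrins in the membrane are tied to the filaments by talin, vinculin, zyxin and integrin-linked kinase. The small GTPases RhoA, RhoC, Rac1 and Cdc42 control this assembly. Monomeric actin also holds back coactivators of serum response factor (SRF), a transcription factor with many cytoskeletal target genes.

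Signals were log2 values between 1.84 and 14.03, and the number of arrays sets the precision. Anxa2 itself was lower in shRNA cells in all 8 pairs of conditions, at 31.3% to 37.7% of the vector level on this scale. In untreated cells its log2 difference was -1.55 ± 0.06 (SE, adjusted p = 3.38e-23). Of 13 epidermal and epithelial markers 4 were tested, with 2 called higher and 0 lower in untreated shRNA cells. The other 9, including Cdh1, Epcam, Trp63 and Krt18, were below the low-signal limit. Of 13 mesenchymal markers 12 were tested, with 6 called higher and 1 lower, and Vim, Col1a2 and S100a4 were among the bright ones. The summed signal of the epithelial list lay between 7.78 and 8.13 in vector and between 8.30 and 8.60 in shRNA arrays. The smooth muscle markers Myh11, Myocd and Synpo2 were below the limit in both lines. The summed smooth muscle list lay between 8.12 and 8.88 in vector and 8.45 and 9.25 in shRNA arrays. In untreated shRNA cells 4 of its 5 tested genes were called higher and 0 lower, beside 24.1% of all genes in each direction. Other lists leaned upward too, with 2 of 4 tested striated muscle and 2 of 5 leukocyte markers called higher and 0 lower. The summed leukocyte list lay between 8.40 and 8.80 in vector and 8.64 and 9.11 in shRNA arrays. The striated muscle list, with 10 of 14 genes below the limit, lay between 7.96 and 8.94 in vector and 9.20 and 10.43 in shRNA arrays, and the mesenchymal list between 14.91 and 15.23 and between 15.20 and 15.50. The part of these marker differences in the results below was not tested. The difference between the 3' and 5' control probe sets of Actb, a sign of RNA quality, exceeded 0.5 on 4 arrays. They were replicate 1 of shRNA cells at 6 h after 10 cGy, replicate 3 of untreated vector cells at 2 h, replicate 2 of shRNA cells at 2 h after 100 cGy and replicate 1 of untreated shRNA cells at 2 h, and the other 43 arrays lay between 0.19 and 0.47. The 3 replicate 3 arrays of vector cells at 2 h stood apart on the second principal component of the members (-0.46 to 0.49, against -1.68 to -1.19 for the other 6).

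The line, then the time in culture, ordered these genes. The first principal component of the 43 members held 44.1% of their variance and kept all shRNA arrays (-2.26 to -0.78) apart from all vector arrays (1.19 to 2.18). The second held 29.0% and placed the 24 h arrays of each line above its 2 h and 6 h arrays. The first and second components of all tested genes, with 51.3% and 19.5%, ordered the arrays in the same way, so this order is not particular to the members. No member was called for either dose.

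In untreated cells, 20 of the 43 members were higher and 4 were lower in the shRNA line at an adjusted p under 0.05 (limma, adjusted over all 8675 genes), 55.8% of them against 48.2% of all genes tested. By direction 24.1% of all genes were called higher and 24.1% lower, so 46.5% of the members stood against 24.1% upward and 9.3% against 24.1% downward. All 6 shRNA arrays lay above all 6 vector arrays for 11 members and below them for 0, against 8.81% and 9.56% of all genes. The median log2 difference was 0.16 over the members and 0.02 over all genes. Without the 3 vector arrays at 2 h that stood apart the counts were 19 and 4, and without the 4 arrays of raised Actb difference they were also 19 and 4. The focal adhesion adaptors had 4 of 6 higher, while the genes of filament turnover and nucleation had 0 of 5 higher and 1 lower.

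**Figure D1:**
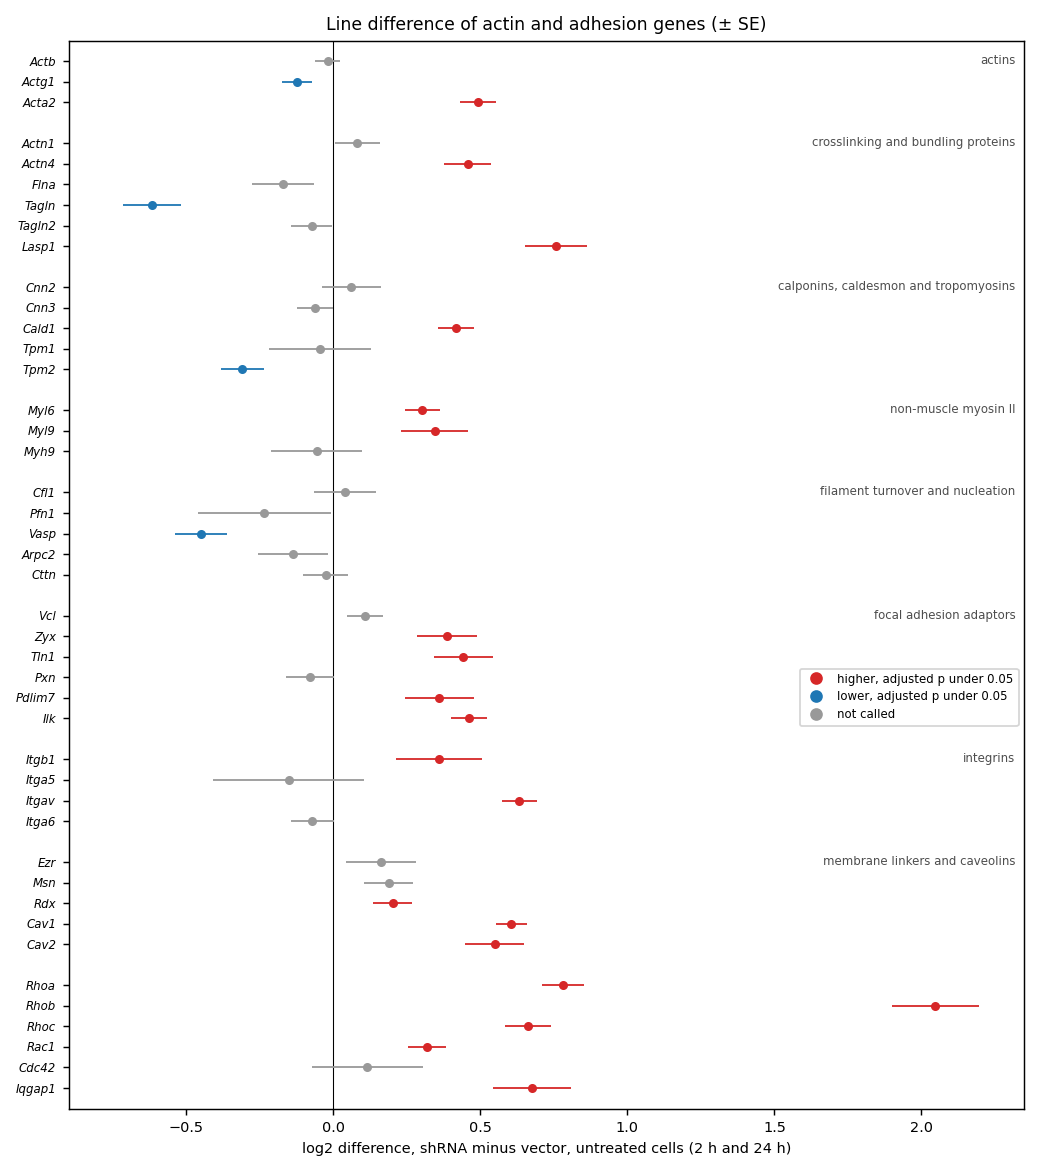
Log2 difference between untreated shRNA and vector cells (2 h and 24 h averaged) for the 43 tested members, grouped by role (the last group has no label); points are estimates and bars standard errors from the fit. Red points are the 20 called higher, blue the 4 called lower and grey the 19 not called; Rhob stands apart at 2.05, and Tagln is lowest at -0.62.

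Rhob, a short-lived small GTPase of endosomes and the plasma membrane, was the member with the largest difference. In vector cells its log2 signal lay between 8.19 and 9.29 at 2 h (median 9.06), between 8.43 and 8.88 at 6 h (median 8.71) and between 8.23 and 8.87 at 24 h (median 8.64). In shRNA cells it lay between 10.20 and 10.68 at 2 h (median 10.60), between 10.12 and 10.58 at 6 h (median 10.24) and between 10.52 and 11.19 at 24 h (median 10.98). The lowest shRNA array was above the highest vector array at every time. The untreated difference was 2.05 ± 0.15, or 4.13-fold (adjusted p = 1.55e-14). It was 1.66 over all arrays at 2 h, 1.62 at 6 h and 2.42 at 24 h.

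Rhoa, which drives stress fibre assembly and contraction, ran from 9.40 to 9.83 over the vector arrays at 2 h (median 9.54), from 9.43 to 9.77 at 6 h (median 9.57) and from 9.55 to 9.83 at 24 h (median 9.62). In shRNA cells these ranges were 10.27 to 10.53 (median 10.43), 10.29 to 10.55 (median 10.42) and 10.27 to 10.68 (median 10.41). Both lines were flat over time and did not overlap. The untreated difference was 0.78 ± 0.07 (adjusted p = 1.32e-11). Rhoc, a close relative of Rhoa, was higher by 0.66 ± 0.08 (adjusted p = 4.10e-09). Its arrays reached 9.39 in vector and began at 9.50 in shRNA cells at 2 h, reached 9.49 and began at 9.87 at 6 h, and reached 9.50 and began at 9.71 at 24 h. The medians of Rhoc were 9.28, 9.42 and 9.33 in vector and 9.84, 9.94 and 9.95 in shRNA cells. At each time Rhoc did not overlap between the lines. The probe sets used for Rhoa, Rhoc and Rac1 have suffixes that mark possible cross-hybridisation with related transcripts, and Rhob's does not. In all 11 members have such a suffix, the others being Acta2, Actg1, Cnn3, Cald1, Cfl1, Pxn, Itga5 and Ezr.

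Rac1, the GTPase of lamellipodia, was higher by 0.32 ± 0.06, and Iqgap1, a scaffold that binds Rac1 and Cdc42 and crosslinks actin, by 0.68 ± 0.13. Cdc42, the GTPase of filopodia, differed by 0.12 ± 0.19 and was not called. The Rac1 arrays did not overlap between lines in untreated cells, those of Iqgap1 did.

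Lasp1, an actin-binding LIM protein of focal adhesions, was the third member without overlap between any of the 23 vector and 24 shRNA arrays. Its vector arrays ran from 9.08 to 9.62 at 2 h (median 9.24), 9.20 to 9.67 at 6 h (median 9.35) and 9.20 to 9.68 at 24 h (median 9.52). The shRNA arrays ran from 9.79 to 10.19 (median 10.01), 9.79 to 10.10 (median 10.01) and 9.93 to 10.76 (median 10.19). The untreated difference was 0.76 ± 0.10 (adjusted p = 1.34e-07). Among all genes 3.25% had every shRNA array above every vector array, and 4.28% every array below. Of the members these were 3 (Rhob, Rhoa and Lasp1) and 0.

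The caveolins, scaffold proteins of membrane pits, were both higher. Cav1 arrays lay between 10.51 and 10.94 in vector cells at 2 h (median 10.58), between 10.06 and 10.27 at 6 h (median 10.16) and between 11.02 and 11.17 at 24 h (median 11.13). In shRNA cells they lay between 11.39 and 11.69 (median 11.51), 11.11 and 11.26 (median 11.20) and 11.48 and 11.65 (median 11.58). The lines did not overlap at any of these times, but the vector level at 24 h reached the range that shRNA cells had at 6 h. The untreated difference was 0.61 ± 0.05 (adjusted p = 4.25e-12), and over all arrays it was 0.89 at 2 h, 1.03 at 6 h and 0.46 at 24 h. Cav2, which pairs with Cav1, was higher by 0.55 ± 0.10. The Cav2 vector arrays ran from 9.62 to 10.33 at 2 h (median 9.77), 9.30 to 9.50 at 6 h (median 9.40) and 9.94 to 10.32 at 24 h (median 10.08). Those of shRNA cells ran from 10.27 to 10.75 (median 10.40), 9.52 to 10.24 (median 10.13) and 10.28 to 10.75 (median 10.57). Both caveolins were lowest at 6 h in each line. Of the ezrin, radixin and moesin genes, whose proteins tie actin to the membrane, Rdx was called (0.20 ± 0.07, but 0.09 with adjusted p = 0.285 as the mean of its probe sets). Ezr was at 0.16 ± 0.12 and Msn at 0.19 ± 0.08, neither called.

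**Figure D2:**
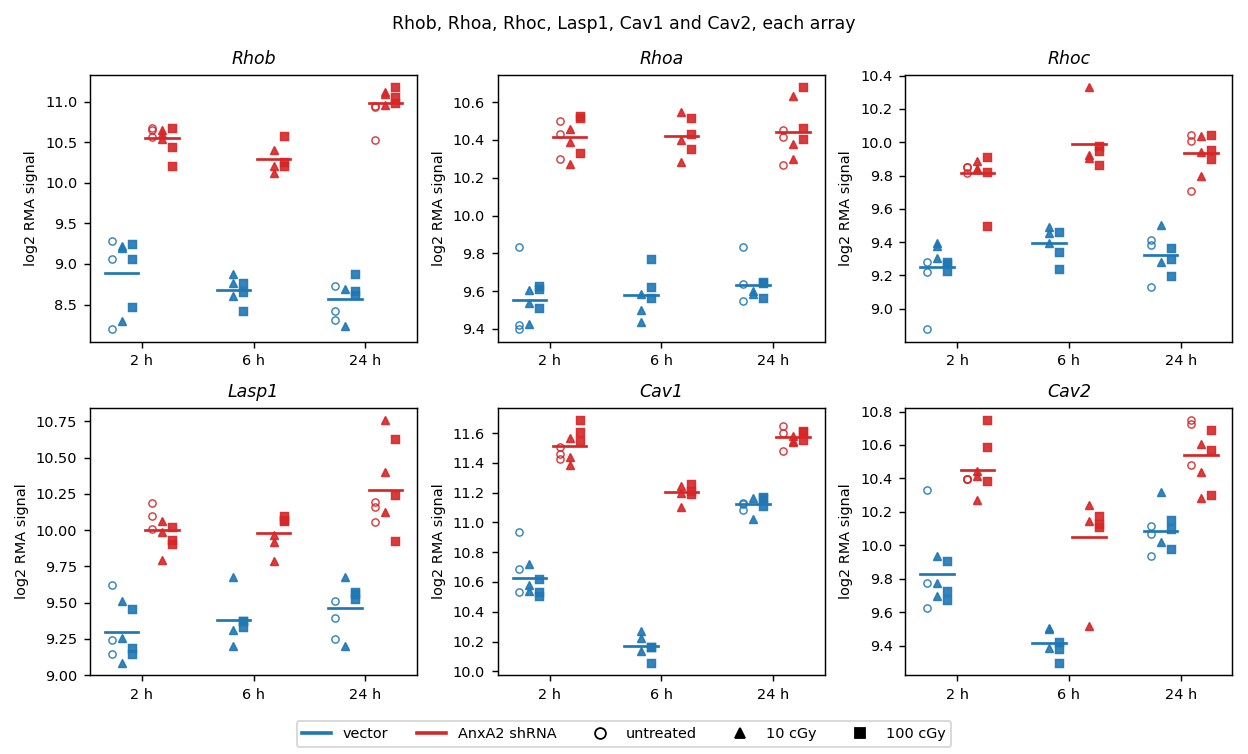
Log2 RMA signal of every array for 6 members at 2, 6 and 24 h; blue is vector and red is AnxA2 shRNA, symbols give the dose and bars the mean over doses. Rhob, Rhoa and Lasp1 do not overlap between lines, and Cav1 and Cav2 dip at 6 h in both.

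Among the integrins, Itgav, the alpha subunit of vitronectin receptors, lay between 8.93 and 9.31 in vector cells at 2 h (median 9.11), 9.22 and 9.46 at 6 h (median 9.30) and 8.34 and 8.69 at 24 h (median 8.50). In shRNA cells it lay between 9.49 and 9.85 (median 9.64), 9.74 and 9.93 (median 9.82) and 9.09 and 9.29 (median 9.21), above the vector arrays at each time. The untreated difference was 0.63 ± 0.06 (adjusted p = 2.31e-11). Itgb1, the beta subunit shared by many fibronectin and collagen receptors, was at 0.36 ± 0.14 (adjusted p = 0.0385). The Itgb1 call was lost without any of 5 single arrays, among them replicate 3 of untreated vector cells at 2 h (adjusted p = 0.145). Itga5, the fibronectin receptor subunit (-0.15 ± 0.26), and Itga6, the laminin receptor subunit (-0.07 ± 0.07), were not called. Of the adaptors, integrin-linked kinase Ilk (0.46 ± 0.06), talin Tln1 (0.44 ± 0.10), zyxin Zyx (0.39 ± 0.10) and the LIM protein gene Pdlim7 (0.36 ± 0.12) were higher. The Pdlim7 call was lost without replicate 3 of untreated vector cells at 2 h (adjusted p = 0.0708). Its untreated means were 9.08 in vector and 9.21 in shRNA cells at 2 h, and 7.89 and 8.48 at 24 h. Over all arrays at 6 h its mean was 9.22 in vector and 9.03 in shRNA cells, so Pdlim7 was not higher at every time. Vinculin, Vcl (0.11 ± 0.06), and paxillin, Pxn (-0.08 ± 0.08), were not called.

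The actins themselves moved little, apart from Acta2. Actb, the main cytoplasmic actin, ranged over all arrays from 13.65 to 13.84 in vector and from 13.51 to 13.85 in shRNA cells, and its untreated difference was -0.02 ± 0.04 (adjusted p = 0.735). As the mean of its probe sets it was -0.54 (adjusted p = 0.0421), so this holds for the brightest probe set only. Actg1, the other cytoplasmic actin, was at -0.12 ± 0.05 (adjusted p = 0.0409), a call lost without any of 8 of the 12 single arrays, with adjusted p up to 0.104. Its arrays overlapped, at 13.39 to 13.70 in vector and 13.29 to 13.68 in shRNA cells, with medians of 13.58, 13.63 and 13.54 in vector and 13.51, 13.46 and 13.41 in shRNA cells at 2, 6 and 24 h. Acta2, the smooth muscle actin found in contractile fibroblasts, was higher by 0.49 ± 0.06 (adjusted p = 1.08e-08). Acta2 and Actg1 were read by probe sets with a suffix for possible cross-hybridisation, in a family of near-identical coding sequences.

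The binding proteins of the filament went both ways. Alpha-actinin 4, Actn4 (0.46 ± 0.08), and caldesmon, Cald1 (0.42 ± 0.06), which holds tropomyosin and myosin on the filament, were higher without overlap of untreated arrays. The myosin II light chains Myl9 (0.34 ± 0.11) and Myl6 (0.30 ± 0.06) were higher as well, the first not without replicate 2 of untreated vector cells at 24 h (adjusted p = 0.0624). The heavy chain Myh9 was at -0.06 ± 0.15. Tagln, the transgelin of smooth muscle and contractile fibroblasts, was lower by 0.62 on the log2 scale (SE 0.10, adjusted p = 2.21e-06), at signals near the low end (4.39 to 6.22 over all arrays). This averages unlike times, with untreated means of 6.07 in vector and 4.89 in shRNA cells at 2 h, but 4.77 and 4.71 at 24 h. Vasp, which speeds filament growth at adhesions and leading edges (-0.45 ± 0.09), and Tpm2, a tropomyosin (-0.31 ± 0.07), were lower too. The Vasp medians were 8.83, 9.12 and 8.72 in vector and 8.32, 8.56 and 8.23 in shRNA cells. Filamin Flna, alpha-actinin 1, transgelin 2, the calponins Cnn2 and Cnn3, tropomyosin 1, cofilin Cfl1, profilin Pfn1, cortactin Cttn and the Arp2/3 subunit gene Arpc2 were not called, with values from -0.24 for Pfn1 to 0.08 for Actn1. On the 4 arrays with a raised Actb difference, Pfn1 signals were 9.87, 10.13, 10.21 and 10.22, the lowest of all 47 arrays. In the same order Cdc42 signals were 9.66, 9.66, 9.55 and 10.16, also the lowest of all 47. Those of Tpm1 were 10.21, 9.57, 9.87 and 10.51, so low values there were not particular to Pfn1.

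The line difference was called at 2, 6 and 24 h alike, on separate arrays, for 15 members upward and 3 downward. The shares were 34.9% of the members against 16.7% of all genes upward, and 6.98% against 18.2% downward. The 15 were Acta2, Actn4, Lasp1, Cald1, Tln1, Ilk, Itgav, Rdx, Cav1, Cav2, Rhoa, Rhob, Rhoc, Rac1 and Iqgap1, and the 3 were Tagln, Tpm2 and Vasp. Taken time by time, 18 members were higher and 7 lower at 2 h (26.5% and 28.1% of all genes), 15 and 10 at 6 h (25.3% and 24.5%), and 21 and 4 at 24 h (27.6% and 29.1%). At 6 h only irradiated cells were available, and with arrays centred on their median 17 members were higher and 5 lower there.

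Between 2 h and 24 h in untreated cells, more members fell than rose in both lines. In vector cells 15 members fell and 2 rose, where 12.9% of all genes fell and 13% rose. In shRNA cells 8 fell and 0 rose, against 9.14% and 10.1% of all genes. In a fit of the compared groups alone the vector counts were 10 lower and 0 higher. The median change of the members was -0.23 in vector and -0.09 in shRNA cells, and that of all genes 0.02 in both. Without the 4 arrays of raised Actb difference the counts were 17 lower and 4 higher in vector cells and 11 lower and 1 higher in shRNA cells. In shRNA cells Anxa2 fell too, by 0.41 on the log2 scale (adjusted p = 3.00e-04). Its untreated means there were 11.12 at 2 h and 10.70 at 24 h, and in vector cells 12.54 and 12.38.

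The integrin gene Itga5, read by a probe set with a suffix for possible cross-hybridisation, fell the most in both lines. Its untreated vector arrays were 9.23, 9.70 and 8.38 at 2 h and 7.61, 7.96 and 7.00 at 24 h. Its untreated shRNA arrays were 9.08, 9.25 and 8.93 at 2 h and 7.19, 7.22 and 7.30 at 24 h. The times did not overlap in either line, and replicate 3 of the vector line was the lowest of its 3 at both times. The changes were -1.58 ± 0.36 in vector (adjusted p = 0.00109) and -1.85 ± 0.36 in shRNA cells (adjusted p = 2.63e-04), or 3.00-fold and 3.60-fold down.

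Acta2 was at 10.09, 10.07 and 10.38 at 2 h and at 9.34, 9.27 and 9.20 at 24 h in untreated vector cells. In untreated shRNA cells it was at 10.90, 10.83 and 10.80 and then at 9.55, 9.50 and 9.74. It fell without overlap from a higher start in shRNA cells, by 0.91 ± 0.09 in vector and by 1.25 ± 0.09 in shRNA cells (adjusted p = 1.74e-10 and 8.73e-14). The difference between these changes was not called in the fit of all arrays. Without the 3 vector arrays at 2 h that stood apart it was -0.44 (adjusted p = 0.0191), and without the 4 arrays of raised Actb difference -0.41 (adjusted p = 0.0181).

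Myl9, the regulatory light chain that activates non-muscle and smooth muscle myosin, was at 7.66, 7.70 and 7.29 at 2 h and 6.81, 6.34 and 6.92 at 24 h in untreated vector cells. The shRNA arrays were 7.82, 7.97 and 8.28, then 6.99, 7.00 and 6.71. Neither line overlapped between times, and the changes were -0.86 ± 0.16 and -1.12 ± 0.16. Pdlim7 went from 9.30, 9.34 and 8.61 to 7.86, 8.03 and 7.78 in vector cells and from 9.19, 9.26 and 9.19 to 8.57, 8.40 and 8.47 in shRNA cells. Its changes were -1.19 ± 0.17 and -0.73 ± 0.17. Itgav fell by 0.82 ± 0.08 in vector and by 0.43 ± 0.08 in shRNA cells. As the mean of its probe sets Itgav was not called in vector cells (-0.32, adjusted p = 0.0925).

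In vector cells Tagln (-1.30 ± 0.14), Itga6 (-1.09 ± 0.10), the scaffold gene Iqgap1 (-0.77 ± 0.19), paxillin Pxn (-0.53 ± 0.12) and Actn4 (-0.51 ± 0.11) fell as well. So did moesin Msn (-0.42 ± 0.12), Ilk (-0.34 ± 0.09), Tagln2 (-0.30 ± 0.10), Cald1 (-0.25 ± 0.09) and Vcl (-0.23 ± 0.09), and Ilk kept the call without any single array. Tagln2, Cald1 and Vcl lost it without 3, 4 and 4 of the 6 arrays (adjusted p up to 0.138, 0.123 and 0.239), and Msn without replicate 2 at 2 h (adjusted p = 0.0593). The genes that rose in vector cells were Cav1 (0.39 ± 0.08) and Myl6 (0.25 ± 0.08), the latter not without replicate 1 or 2 at 2 h or replicate 2 at 24 h (adjusted p up to 0.0871). In shRNA cells Zyx (-0.52 ± 0.15), Actn1 (-0.34 ± 0.11) and Tpm2 (-0.30 ± 0.10) completed the list, the last of them called without only 1 of the 6 arrays left out in turn.

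**Figure D3:**
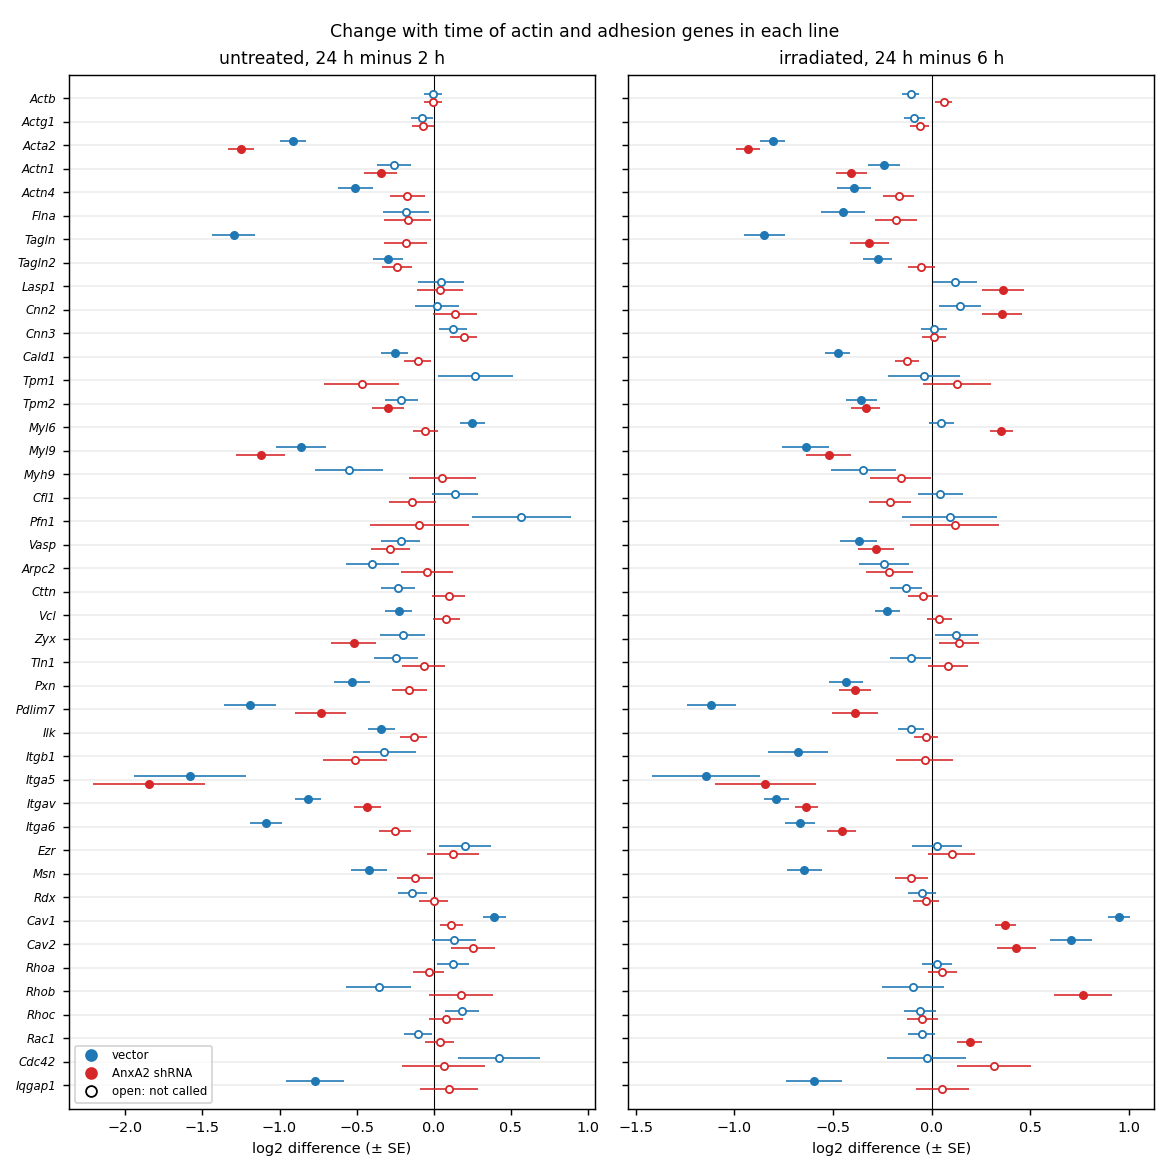
Log2 change of each tested member with time, in untreated cells from 2 h to 24 h (left) and in irradiated cells from 6 h to 24 h (right), with standard errors; filled points are called at an adjusted p under 0.05. Itga5, Acta2, Myl9, Pdlim7 and Itgav are filled and left of 0 in both lines and both panels.

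Irradiated cells are on other arrays. From 6 h to 24 h after irradiation, over both doses, 19 members fell and 2 rose in vector cells, where 16.5% of all genes fell and 22.4% rose. In shRNA cells 11 fell and 7 rose, against 18.6% and 20.7%. Acta2, Myl9, Pdlim7, Itga5 and Itgav fell in each of the 4 comparisons, 11.6% of the members against 3.56% of all genes, and no member rose in all 4 (3.53% of genes). In vector cells 14 members, or 32.6%, fell in both comparisons, against 8.84% of genes. In shRNA cells they were 7, or 16.3%, against 6.58%. In both comparisons Cav1 alone rose in vector cells (2.33% against 10.5% of genes), and 0 members rose in shRNA cells (7.09% of genes). After irradiation Acta2 went from a median of 10.00 at 6 h to 9.22 at 24 h in vector cells and from 10.58 to 9.65 in shRNA cells when all arrays of a time are taken. Its change was -0.81 ± 0.06 and -0.93 ± 0.06. Itga5 changed by -1.14 ± 0.27 and -0.84 ± 0.26, and Itgav by -0.79 ± 0.06 and -0.63 ± 0.06.

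**Figure D4:**
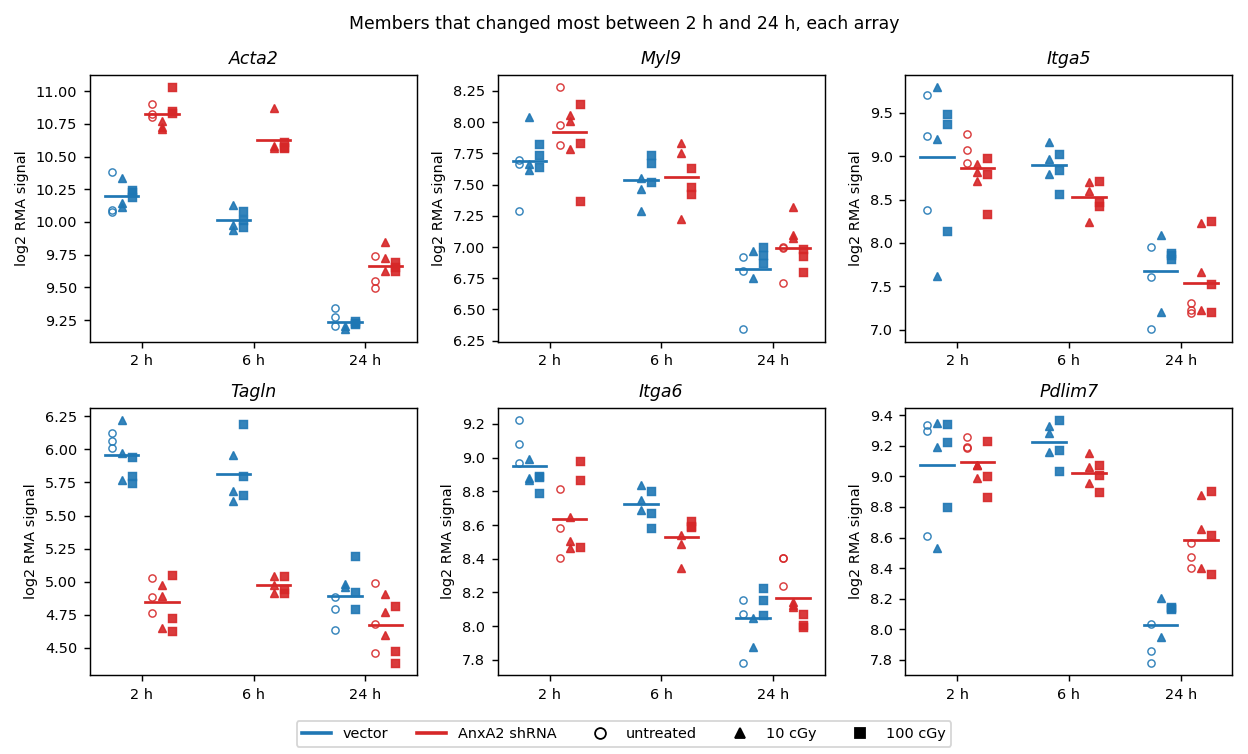
Log2 RMA signal of every array for 6 members that changed with time; blue is vector and red is AnxA2 shRNA, symbols give the dose and bars the mean over doses. Acta2, Myl9 and Itga5 fall to 24 h in both lines, while untreated Tagln and Itga6 (circles) fall further in vector cells, where they start higher.

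Of the 5 members that fell in all 4 comparisons, the upstream sequences of Acta2, Myl9 and Itga5 are shown because they hold matches to the CArG box, given in capitals. Those of Pdlim7 and Itgav held no match in the same window. The CArG box is the DNA element bound by SRF, a pair of C and a pair of G around 6 bases that are A or T. The 250 bases before an annotated start of each gene are from the RefSeq annotation of GRCm38.p6, on the strand of the gene, 5′ to 3′. They are chr19:34255374-34255623 on the minus strand for Acta2, chr2:156775214-156775463 on the plus strand for Myl9 and chr15:103366792-103367041 on the minus strand for Itga5.
Acta2: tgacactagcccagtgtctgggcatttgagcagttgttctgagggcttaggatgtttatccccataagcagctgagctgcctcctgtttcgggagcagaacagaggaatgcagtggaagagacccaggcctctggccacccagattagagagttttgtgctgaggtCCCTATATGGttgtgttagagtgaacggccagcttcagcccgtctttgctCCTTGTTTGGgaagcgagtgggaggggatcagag
Myl9: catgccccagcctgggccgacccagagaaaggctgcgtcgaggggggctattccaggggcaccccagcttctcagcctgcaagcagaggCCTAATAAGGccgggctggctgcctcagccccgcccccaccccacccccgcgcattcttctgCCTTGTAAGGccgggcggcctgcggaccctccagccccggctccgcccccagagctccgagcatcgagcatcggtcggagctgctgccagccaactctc
Itga5: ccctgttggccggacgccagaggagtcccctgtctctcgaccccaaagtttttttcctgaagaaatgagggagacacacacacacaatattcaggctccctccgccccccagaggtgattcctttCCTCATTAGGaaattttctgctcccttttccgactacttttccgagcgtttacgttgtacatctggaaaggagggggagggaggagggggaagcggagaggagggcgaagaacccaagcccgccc

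Myl9 has an exact box, beginning 161 bases before the start, and a second match, with a G among the 6 middle bases, 99 bases before it. Acta2 has matches with 1 G or C in the middle, beginning 84 and 34 bases before the start used here. Both lie inside the annotated span of Acta2, which reaches 34255585, so they are not upstream of the whole gene. Itga5 has such a match 125 bases before its start. Upstream sequences were found for 39 of the 45 listed genes. Those of Actb, Cttn, Itga6, Pxn, Rac1 and Tagln were not among them. An exact box on either strand was found for 5 of the 39 genes, against 1.62% of 27025 genes with an upstream sequence of this length. With up to 1 G or C in the middle it was found for 10 of them, against 9.78%. The exact box of Myl6, at chr10:128493050-128493059, lies inside the annotated span of that gene, which reaches 128493886. It is not upstream of the whole gene either. The exact boxes other than that of Myl9, with the 10 bases on each side, are these.
Actg1: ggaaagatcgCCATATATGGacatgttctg
Cnn2: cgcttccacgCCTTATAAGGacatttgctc
Myl6: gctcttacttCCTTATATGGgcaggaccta
Vcl: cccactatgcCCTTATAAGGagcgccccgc

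The genes with an exact box did not move as a group between 2 h and 24 h. Myl9 fell in both lines, Vcl was at -0.23 in vector and 0.08 in shRNA cells, and Actg1 was at -0.08 and -0.07, the last 2 not called. Myl6 rose in vector cells (0.25) and was at -0.05 in shRNA cells, and Cnn2 was at 0.02 and 0.14, not called. A match describes these letters only, and SRF binding was not measured.

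The caveolins went down and up again. From 2 h to 6 h after irradiation Cav1 fell by 0.41 ± 0.05 in vector and by 0.34 ± 0.05 in shRNA cells, and Cav2 by 0.37 ± 0.10 and by 0.42 ± 0.10. From 6 h to 24 h Cav1 rose by 0.95 ± 0.06 and 0.37 ± 0.05, and Cav2 by 0.71 ± 0.11 and 0.43 ± 0.10. As the mean of its probe sets, the Cav2 changes to 6 h were -0.17 in both lines and not called (adjusted p = 0.12 and 0.108), and its change to 24 h in shRNA cells was 0.13 (adjusted p = 0.165). In all, 5 members rose and 3 fell from 2 h to 6 h in vector cells (8.9% and 7.82% of all genes). Without the 3 vector arrays at 2 h that stood apart 4 rose and 6 fell, and as the mean of all probe sets 5 rose and 1 fell. From 2 h to 6 h 2 rose and 5 fell in shRNA cells (12% and 9.51%). The ranges given next for Vasp, Cald1 and Zyx include untreated arrays at 2 h. The Vasp arrays lay between 8.49 and 9.13 at 2 h and 9.02 and 9.21 at 6 h in vector cells. In shRNA cells they lay between 7.89 and 8.52 and then between 8.04 and 8.72, and both lines overlapped between times. In irradiated arrays alone, every Vasp array at 6 h lay above every one at 2 h in vector cells, but not in shRNA cells. Those of Cald1 in vector cells went from 11.37 to 11.55 at 2 h and 11.53 to 11.79 at 6 h, and those of Zyx in shRNA cells from 10.35 to 10.69 and 9.96 to 10.24, the latter without overlap. Vasp rose in both lines (0.27 ± 0.09 and 0.26 ± 0.09), and Acta2 fell in both (-0.19 ± 0.06 each). Cald1 (0.25), Vcl (0.22), Itgav (0.22) and Cnn3 (0.20) rose in vector cells. As the mean of its probe sets Itgav was not called in vector cells (0.19, adjusted p = 0.209). In shRNA cells Itgav rose by 0.16 (-0.025 as the mean of its probe sets, adjusted p = 0.905), and Zyx (-0.36) and Myl9 (-0.31) fell. The shRNA count was 4 without replicate 1 of shRNA cells at 2 h after 10 cGy and 3 in a fit of the compared groups alone, which left 5 in vector cells.

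From 6 h to 24 h other members rose in shRNA cells, namely Rhob (0.77 ± 0.15), Lasp1 (0.36 ± 0.10), Cnn2 (0.36 ± 0.10), Myl6 (0.35 ± 0.06) and Rac1 (0.19 ± 0.06). Whether they changed differently from vector cells is given by the difference of the changes, taken as shRNA minus vector. That difference was called for 9 members from 6 h to 24 h, 8 upward and 1 downward, against 3.94% and 6.2% of all genes. Rhob had 0.86 ± 0.22 (adjusted p = 0.00615), from a vector change of -0.09, and Myl6 had 0.30 ± 0.09 (adjusted p = 0.0168). Pdlim7 (0.73 ± 0.17), Msn (0.54 ± 0.12), Tagln (0.53 ± 0.14) and Cald1 (0.35 ± 0.09) fell less, or not past the threshold, in shRNA cells. Cald1 lost the call without replicate 1 of vector cells at 24 h after 10 cGy (adjusted p = 0.0686). Cav1 was the member with a negative value (-0.58 ± 0.08, adjusted p = 1.51e-06), since its rise was larger in vector cells. Itgb1 (0.64 ± 0.21) and Iqgap1 (0.65 ± 0.19) were called too, but not without 16 and 5 of the 23 single arrays (adjusted p up to 0.124 and 0.0562). Over all arrays of a time, untreated ones included at 24 h, the Iqgap1 medians were 10.53 at 6 h and 9.97 at 24 h in vector cells. In shRNA cells they were 10.94 and 11.12. Those of Itgb1 were 10.27 and 9.59 against 10.47 and 10.26.

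For Msn the arrays, untreated ones included, show the shape of such a difference. In vector cells they lay between 10.43 and 10.89 at 2 h, 10.77 and 11.10 at 6 h and 10.15 and 10.38 at 24 h. In shRNA cells they lay between 10.48 and 10.84, 10.53 and 11.05, and 10.47 and 10.88. The vector arrays dropped below all others at 24 h, and the shRNA arrays overlapped at all times. Over the same arrays Pdlim7 had medians of 9.22, 9.23 and 8.08 in vector and 9.08, 9.04 and 8.57 in shRNA cells.

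In untreated cells the change from 2 h to 24 h differed between lines for 4 members, each more negative in vector cells, against 2.97% upward and 2.72% downward of all genes. Tagln had arrays of 6.12, 6.07 and 6.01 at 2 h and 4.79, 4.88 and 4.63 at 24 h in vector cells, but 5.03, 4.88 and 4.77 and then 4.46, 4.68 and 4.99 in shRNA cells. The vector arrays at 2 h stood above all others, and the difference of changes was 1.11 ± 0.20 (adjusted p = 2.33e-04). Itga6 fell from 9.22, 8.97 and 9.08 to 8.07, 8.15 and 7.78 in vector cells, and was at 8.82, 8.58 and 8.41 and then 8.40, 8.24 and 8.41 in shRNA cells, a difference of 0.84 ± 0.15 (adjusted p = 1.94e-04). Both kept the call without any single array. Iqgap1 (0.87 ± 0.27, adjusted p = 0.0462) and Itgav (0.39 ± 0.12, adjusted p = 0.0477) lost it without 8 and 9 of the 12 single arrays, and as the mean of its probe sets the Itgav value was -0.10. The count was 7 without the 3 vector arrays at 2 h that stood apart, and 2 in a fit of the compared groups alone. From 2 h to 6 h after irradiation Vcl was the member with a called difference (-0.32 ± 0.09, adjusted p = 0.0339, against 1.34% of genes upward and 1.51% downward). Over all arrays of a time, untreated ones included at 2 h, its medians were 10.32 and 10.49 in vector and 10.36 and 10.27 in shRNA cells. The call was lost without 12 of the 24 single arrays.

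Radiation left no called change among the 43 members. In all 10 dose comparisons, 8 against untreated cells and 2 of 100 against 10 cGy at 6 h, limma called 0 members. Of all genes, 0.0461% were called in vector and 0.0231% in shRNA cells for 100 cGy at 2 h, and 0.0922% and 0.161% at 24 h. For 10 cGy they were 0% and 0.0115% at 2 h and 0.0115% and 0% at 24 h, and for 100 against 10 cGy at 6 h 0.0922% and 0%. Of the 430 pairs of member and comparison, 17 had an unadjusted p under 0.05, which is 3.95%, against 4.84% over all genes. The values lay between -0.48 and 0.49. The 95% confidence interval lay within a 2-fold change either way for 424 of the 430 pairs and within 1.5-fold for 364. The 6 wider intervals belonged to Itga5, in 4 comparisons of shRNA cells and 1 of vector cells, and to Pfn1 in vector cells at 2 h after 100 cGy. Per comparison, between 34 and 38 of the 43 members had an interval within 1.5-fold.

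The smallest adjusted p belonged to Myl6, the essential light chain of non-muscle myosin, at 2 h. In vector cells its arrays were 6.82, 6.79 and 6.90 untreated, 6.87, 6.81 and 7.19 after 10 cGy and 7.15, 7.30 and 7.22 after 100 cGy. In shRNA cells they were 7.28, 7.20 and 7.39 untreated, 6.95, 6.78 and 7.00 after 10 cGy and 6.92, 7.00 and 7.13 after 100 cGy. The 100 cGy arrays lay above the untreated ones in vector cells and below them in shRNA cells. The differences were 0.39 (adjusted p = 0.0593) for 100 cGy in vector cells and -0.38 (adjusted p = 0.0867) for 10 cGy in shRNA cells, neither called. With arrays centred on their median, with a replicate block, or without the 3 vector arrays that stood apart, 1 member was called higher in vector cells after 100 cGy at 2 h. The difference of the 100 cGy responses between lines was called for Myl6 alone (-0.66 ± 0.12, adjusted p = 0.0177), as 1 of the 43 members and 0.0115% of all genes. It was not called without any of 6 single arrays (adjusted p up to 0.161), without the arrays of raised Actb difference (-0.69, adjusted p = 0.174) or in a fit of the compared groups alone (adjusted p = 0.733). The difference of dose responses was called for 0 members in the other 3 comparisons, at 0.0807% of all genes for 100 cGy at 24 h and 0.0115% for 10 cGy at either time (limma).

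**Figure D5:**
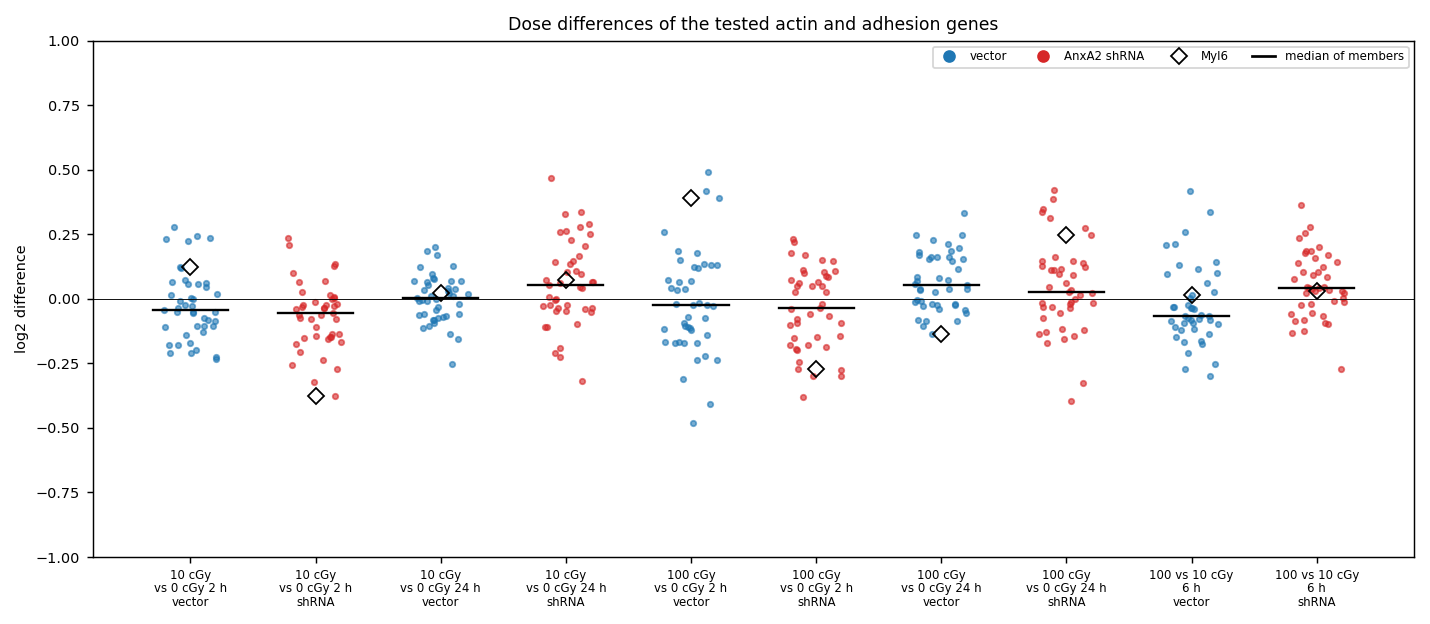
Log2 differences of the 43 tested members in the 10 dose comparisons (0 cGy is untreated); points are members, with sideways scatter for legibility, bars are medians over members and diamonds are Myl6. All points lie between -0.48 and 0.49, and none was called.

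The rest of the actin machinery was read from 10 further lists with 131 tested genes. In untreated cells 61 of these were higher and 20 lower in the shRNA line, at a median of 0.19, beside 24.1% and 24.1% of all genes. From 2 h to 24 h 15 rose and 29 fell in vector cells, where 13% of all genes rose and 12.9% fell, and 18 rose and 18 fell in shRNA cells, where 10.1% and 9.14% did. Of the 26 other focal adhesion proteins 16 were higher and 1 lower. Among them were Tes, a LIM protein that binds zyxin (1.49 ± 0.10), tensin Tns1 (0.94 ± 0.09), Pdlim5 (0.88 ± 0.08) and the paxillin relative Tgfb1i1 (0.57 ± 0.06). From 2 h to 24 h 9 of them fell and 3 rose in vector cells.

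Of 16 other myosins and their kinases and phosphatases 11 were higher and 2 lower. The unconventional myosins Myo1c (0.86 ± 0.06), Myo1d (0.81 ± 0.07) and Myo5a (0.54 ± 0.07) were higher, and the regulatory light chain gene Myl12b was lower (-1.61 ± 0.11). Of 18 genes for capping, severing and monomer binding 11 were higher and 2 lower, with adducin Add3 (0.74 ± 0.08), the capping proteins Capg (0.50 ± 0.06) and Capza2 (0.46 ± 0.07) upward and thymosin Tmsb4x downward (-0.53 ± 0.08). Of 14 other crosslinkers and tropomyosins 6 were higher, among them spectrin Sptbn1 (0.65 ± 0.06) and filamin Flnc (0.99 ± 0.12). In the same list 5 were lower, with Marcksl1, which binds actin and calmodulin (-2.36 ± 0.12), and synaptopodin Synpo (-1.57 ± 0.15) at the front.

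Of 12 other Arp2/3 subunits and activators 5 were higher and 1 lower. Abi1 (0.69 ± 0.07), Nckap1 (0.48 ± 0.06) and Wasf2 (0.35 ± 0.06), of the WAVE complex, and Wasl, the N-WASP gene (0.55 ± 0.09), were higher. The gene called lower, Wasf1 (-0.49 ± 0.11), also belongs to WAVE and is named after its value was seen. Of 6 formins and Ena/VASP proteins 1 was higher, the RhoA effector Diaph1 (0.92 ± 0.07), and 3 were lower. Those were the Vasp relatives Enah (-1.07 ± 0.13) and Evl (-0.44 ± 0.10) and the formin Diaph3 (-0.40 ± 0.10).

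Of 7 other integrins 2 were higher and 2 lower, with Itgb5, a partner of Itgav (0.55 ± 0.08), and Itga7 (0.34 ± 0.11) upward and Itgb7 (-0.64 ± 0.09) and Itga3 (-0.48 ± 0.11) downward. Of 4 caveolar proteins the coat proteins Cavin2 (0.86 ± 0.10) and Cavin3 (0.83 ± 0.06) were higher. Cavin1 was at 0.27 ± 0.36 and Ehd2 at -0.11 ± 0.12. Of 6 genes for SRF and its partners Srf itself was higher (0.68 ± 0.11, adjusted p = 2.56e-06), and 2 of the 6 fell from 2 h to 24 h in vector cells and 1 in shRNA cells.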

How the data were processed

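RNA of JB6 cells was measured on 47 Affymetrix arrays. The values used are the log2 signals that the authors deposited, and RMA is named in the submitters' processing notes, with no version given in the sources used here. Of 22690 probe sets 64 controls were set aside, 20380 carried 1 gene symbol, 691 several and 1555 none. A gene is its probe set with the highest mean, and the lowest 30% of genes were left out. A single limma fit (3.58.1, R 4.3.3) held 16 group means, with 31 residual and 5.68 prior degrees of freedom. Adjustment followed Benjamini and Hochberg across the 8675 genes tested, with a threshold of 0.05, and errors are standard errors of the fit. Irradiated time comparisons pool both doses. The same steps were tested on simulated data with independent normal noise on each array. Links between same-numbered arrays were not simulated, so that test cannot show how the calls behave under such links. The 45 members, the companion lists and the markers were chosen with earlier results of these data known. By the rule for named genes every member called between untreated lines is named. Arrays or ranges are given for Actb, Actg1, Acta2 and Myl6, for the 6 largest called line differences without overlap, for the 3 largest called changes up and down in each time comparison, and for up to 6 members of smallest p where a difference between lines was called. Of each companion list up to 4 genes of smallest p are named, except for 1 list whose results are not reported here, and Itga6 and other members shown in detail beyond this were chosen after their values were seen. Within a line and time, same-numbered replicates correlated over 0.1 in 27 of 40 pairs. In vector cells the median was 0.476 at 2 h, against -0.351 for unlike numbers, 0.193 against -0.128 at 24 h and -0.063 against 0.034 at 6 h. The labels do not say what the numbers stand for, and the main fit treats the arrays as independent. Where arrays are linked across doses, comparisons pooled over doses rest on fewer independent samples than arrays. Alternatives were the mean of all probe sets, no low-signal filter, arrays centred on their median, only the compared groups, without the 3 vector arrays at 2 h that stood apart, a replicate block, and leaving out each array. The set without the arrays of raised Actb difference was chosen after seeing the data. Promoters come from RefSeq, GRCm38.p6. Figures used matplotlib 3.10.9.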

Additional observations from a re-analysis of the deposited data

Results flagged for a closer look

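These members had a change that differed between lines by a test of the difference itself, given as the shRNA change minus the vector change (limma, adjusted over all genes). For untreated cells from 2 h to 24 h they were Tagln (1.11), Itga6 (0.84), Iqgap1 (0.87) and Itgav (0.39). For irradiated cells from 2 h to 6 h it was Vcl (-0.32). For irradiated cells from 6 h to 24 h they were Rhob (0.86), Pdlim7 (0.73), Iqgap1 (0.65), Itgb1 (0.64), Msn (0.54), Tagln (0.53), Cald1 (0.35), Myl6 (0.30) and Cav1 (-0.58). For 100 cGy against untreated cells at 2 h it was Myl6 (-0.66). Of the 15 differences, those of Tagln (both), Itga6, Pdlim7, Msn, Cav1, Rhob and Myl6 from 6 h to 24 h kept the call without any single array.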

How the results depend on the processing

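Of 193 called pairs of gene and comparison, 153 kept the call without any single array and 139 under every alternative run. As the mean of all probe sets 3 values changed sign: Actb from 2 h to 24 h in untreated vector cells (0.99, adjusted p = 0.0169), Itgav from 2 h to 6 h in irradiated shRNA cells (-0.025, adjusted p = 0.905) and the Itgav difference between lines in untreated cells (-0.10). In a fit of the compared groups alone, members called were 10 from 2 h to 24 h in untreated vector cells, 5 and 3 from 2 h to 6 h in vector and shRNA cells, 2 for the untreated difference between lines, 0 for that from 2 h to 6 h and 0 for 100 cGy at 2 h. The untreated difference between lines gave 2 with no low-signal filter and 7 without the 3 vector arrays. That from 2 h to 6 h gave 0 with no filter, with centring, without the arrays of raised Actb difference and when replicate numbers were blocked by line and time. That for 100 cGy at 2 h gave 0 without the arrays of raised Actb difference. Vector cells at 2 h after 100 cGy had 1 member called with centring, without the 3 vector arrays, and with either replicate block. With the block within line and time 4 were called from 2 h to 6 h in shRNA cells. In vector cells same-numbered arrays correlated over 0.1 in 8 of 9 pairs at 2 h and 7 of 7 at 24 h, but in 0 of 3 at 6 h. The block within line and time ended 14 calls and moved the 24 h line count from 25 to 22, and the replicate block over all arrays ended 1, the Itgb1 difference from 6 h to 24 h (adjusted p = 0.0514). Leaving out single arrays gave 4 to 8 members from 2 h to 6 h in shRNA cells, 2 to 5 for the untreated difference between lines, 0 to 1 for that from 2 h to 6 h, 0 to 1 for that of 100 cGy at 2 h, 6 to 11 for that from 6 h to 24 h, and 21 to 25 for the untreated line difference. The causes were not tested. Centring moved the median of all genes by at most 0.063. The number of arrays limits the precision.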
